A study of Mus musculus with 29 samples.

Results

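Mouse embryonic stem cells (ESCs) that had spent 16 passages in 2i/L and then 10 passages back in S/L were compared with ESCs kept for 16 passages in a2i/L or PKCi/L. The first group (2i/L to S/L p30, collected at passage 30) has 2 libraries, from lines titled J-35 and J-37. The others are a2i/L p20 (passage 20, lines J-34 and J-35) and PKCi/L p20 (passage 20, lines J-34 and J-35), with 2 libraries each, and these 4 are together called the a2i/PKCi libraries. The 6 libraries were chosen by their titles from the 29 of the series. All lines are labelled male, and every culture entered its medium at passage 4. S/L is serum with LIF, and 2i/L is LIF with inhibitors of Mek1/2 and Gsk3. What a2i/L and PKCi/L contain is not stated in the labels, which list no 2i/L culture for the cells grown in them. The p30 library titled J-35 is given as J-34 in its cell type and treatment fields, and it is called by its title here. Medium, passage, line (J-37 occurs only at p30) and past 2i/L all differ between p30 and the other cells and cannot be told apart. The labels do not say whether libraries of 1 group were grown apart, so p-values measure only the spread between these libraries, which may be partly technical.

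DNA methylation was read by reduced representation bisulfite sequencing (RRBS), which samples CpG dinucleotides where the genome is rich in them. A methylation level is the share of reads that carry a methylated cytosine. A level is an average over a culture, so a change in every cell and a change in the mix of cells cannot be told apart. The 6 libraries held 14091911 to 22433006 reads over CpGs. Of the CpGs on the autosomes, 781769 had at least 5 reads in all 6 libraries. They were grouped into 65138 tiles of 1 kb with at least 3 such CpGs, and a tile carried a median of 69 reads per library. Each tile was tested with a quasi-binomial logistic model of its methylated and unmethylated reads, with Benjamini-Hochberg adjustment over all tiles. The spread of a tile was shrunk strongly towards that of tiles of like depth, so a tile whose p30 libraries disagree can still be called. A tile was called where the group means lay 20 points or more apart and the adjusted p was under 0.05. Adjusted p values given without a tool are from this model, and limma on log2 ratios was the second tool. Coordinates are those of the mouse build mm9 and run from the first to the last CpG. No mm9 gene annotation was used, so tiles are placed by the nearest promoters whose CpG spacing matched the RefSeq sequence, not in exons or introns.

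Cultures in 2i/L lose CpG methylation over most of the genome, and much of it is regained when they go back to serum. Imprinting control regions are a known exception to such regain. They carry methylation on the allele from a single parent, set in the egg or sperm, and in the early embryo ZFP57 and TRIM28 keep it through each round of replication. Once lost in a cell that is not a germ cell, that mark is not normally put back on the right allele. A normal imprinted region therefore reads as intermediate methylation.

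The Mcts2 promoter is shown because it held the lowest adjusted p among the imprinted tiles, and those of Plagl1 and Zrsr1 because p30 and a2i/PKCi libraries overlapped there. Sequences are RefSeq promoters (build GRCm38.p6), from 250 bases before to 50 after the transcript start. They were placed on mm9 at chr2:152512634-152512933, chr10:12810388-12810687 and chr11:22871755-22872054, all on the plus strand, by their CpG spacing. Capitals mark the CpGs measured in all 6 libraries, which are 10 of 25 in Mcts2, 9 of 26 in Plagl1 and 7 of 10 in Zrsr1.
Mcts2: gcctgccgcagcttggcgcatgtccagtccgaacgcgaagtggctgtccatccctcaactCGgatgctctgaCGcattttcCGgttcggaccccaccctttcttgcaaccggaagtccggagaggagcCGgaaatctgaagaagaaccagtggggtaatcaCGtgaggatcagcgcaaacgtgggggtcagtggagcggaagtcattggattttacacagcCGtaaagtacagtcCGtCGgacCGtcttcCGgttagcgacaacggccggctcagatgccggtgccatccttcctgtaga
Plagl1: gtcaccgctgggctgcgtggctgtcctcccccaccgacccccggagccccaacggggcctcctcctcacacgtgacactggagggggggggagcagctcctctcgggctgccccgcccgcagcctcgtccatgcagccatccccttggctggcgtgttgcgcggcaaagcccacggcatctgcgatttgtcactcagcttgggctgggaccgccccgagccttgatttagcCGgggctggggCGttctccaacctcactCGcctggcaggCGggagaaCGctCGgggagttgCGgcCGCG
Zrsr1: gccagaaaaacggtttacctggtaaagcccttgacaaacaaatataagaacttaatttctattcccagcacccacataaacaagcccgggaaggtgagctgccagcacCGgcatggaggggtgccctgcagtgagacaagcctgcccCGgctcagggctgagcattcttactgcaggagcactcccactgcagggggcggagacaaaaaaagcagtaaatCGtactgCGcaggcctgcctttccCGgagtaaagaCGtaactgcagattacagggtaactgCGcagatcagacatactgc

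Both p30 libraries had almost no methylation at Mcts2, a retrogene inside H13 that is expressed from the paternal allele. At the CpGs in capitals, 0 of 165 reads (p30 J-35) and 0 of 124 reads (p30 J-37) were methylated, which allows a level of up to 1.82% and 2.42%. The share was 36.9% and 35.1% in a2i/L (J-34 and J-35) and 22.5% and 37.3% in PKCi/L (J-34 and J-35). All 10 CpGs stood at 0 in both p30 libraries, and each a2i/PKCi library had methylated reads at every one of them. The whole tile, chr2:152512549-152512885 with 20 CpGs, had 0.35% and 0.763% at p30, 43.9% and 38.2% in a2i/L and 31.7% and 41.9% in PKCi/L. The difference of group means was -38.4 points, far outside the spread between libraries (quasi-binomial adjusted p = 3.83e-06; limma adjusted p = 0.000421). This call held with any of the 6 libraries left out. Cells that never saw 2i/L were also low here in S/L: 14.1%, 10.3% and 0.392% in S/L p20 of J-34, J-35 and J-37. In S/L p10 the same lines had 15.8%, 26.3% and 5.13%, so J-37 was already low at passage 10 without 2i/L. Wild-type keratinocytes had 39.8%.

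**Figure D1:**
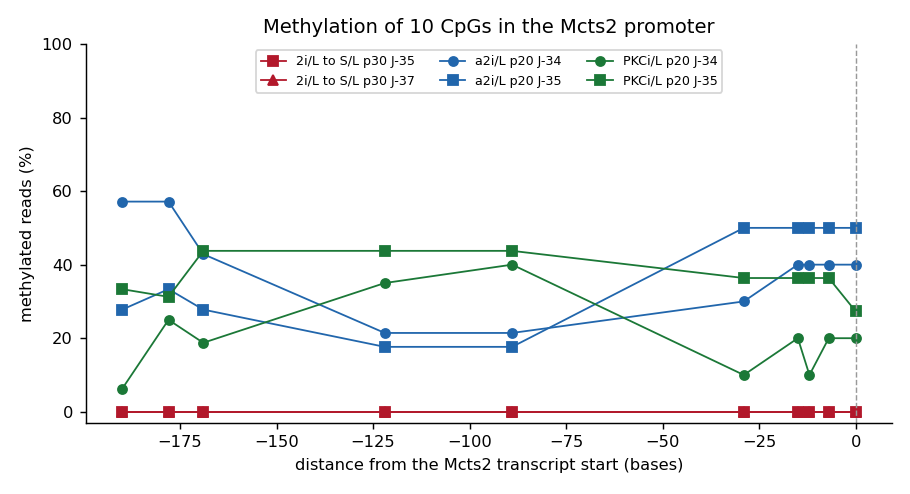
Methylated reads (%) at 10 CpGs of the Mcts2 promoter against distance from the transcript start in bases, 1 line per library. Both p30 libraries lie at 0 at every CpG and their lines cover each other, while the 4 a2i/PKCi libraries lie between 6.25% and 57.1%.

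The next question was whether other imprinted regions behaved alike. Of 22 windows placed on mm9 from general knowledge, 20 had at least 3 CpGs. The H19/Igf2 window had 1 CpG and the Cdh15 window 0, and neither was measured. The placement was checked on other libraries: 15 of the 20 windows lay between 30% and 70% in wild-type keratinocytes. Those outside that range were Nnat (71.0%), Peg10/Sgce (23.6%), Rasgrf1 (0%), Dlk1/Meg3 IG (85.5%) and Slc38a4 (73.1%). Over the 18 windows with maternal methylation, the mean level was 19.7% in p30 J-35 and 10.5% in p30 J-37. It was 33.4% and 38.7% in a2i/L (J-34 and J-35) and 36.7% and 33.6% in PKCi/L (J-34 and J-35), so both p30 libraries were below all 4. In 13 of the 20 windows both p30 libraries were below every a2i/PKCi library, and in 0 above. The same order, p30 lowest, held at 14.3% of all 65138 tiles. It held at 25.7% of 70 CpG-dense tiles of intermediate methylation outside the windows, a list made after seeing the data and described in the closing section. The median difference over the 18 maternal windows was -19.6 points, beside -0.29 points over all tiles. The windows held 31 tiles, of which 9 (29.03%) were called lower and 0 higher, against 0.321% of all tiles called lower and 0.229% called higher. The share over all tiles includes tiles with no room to fall. Of the 65138 tiles, 38061 stood at 20% or more in a2i/PKCi, and all 209 lower tiles came from these. The called tiles lie in the Mcts2/H13, Nnat, Nespas/Gnasxl, Nap1l5, Inpp5f_v2 and Grb10 windows. Limma called 2 of these 9 tiles, and 25 window tiles were lower at an unadjusted quasi-binomial p under 0.05. Without p30 J-37 the count of lower window tiles was 1, and without p30 J-35 it was 6.

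**Figure D2:**
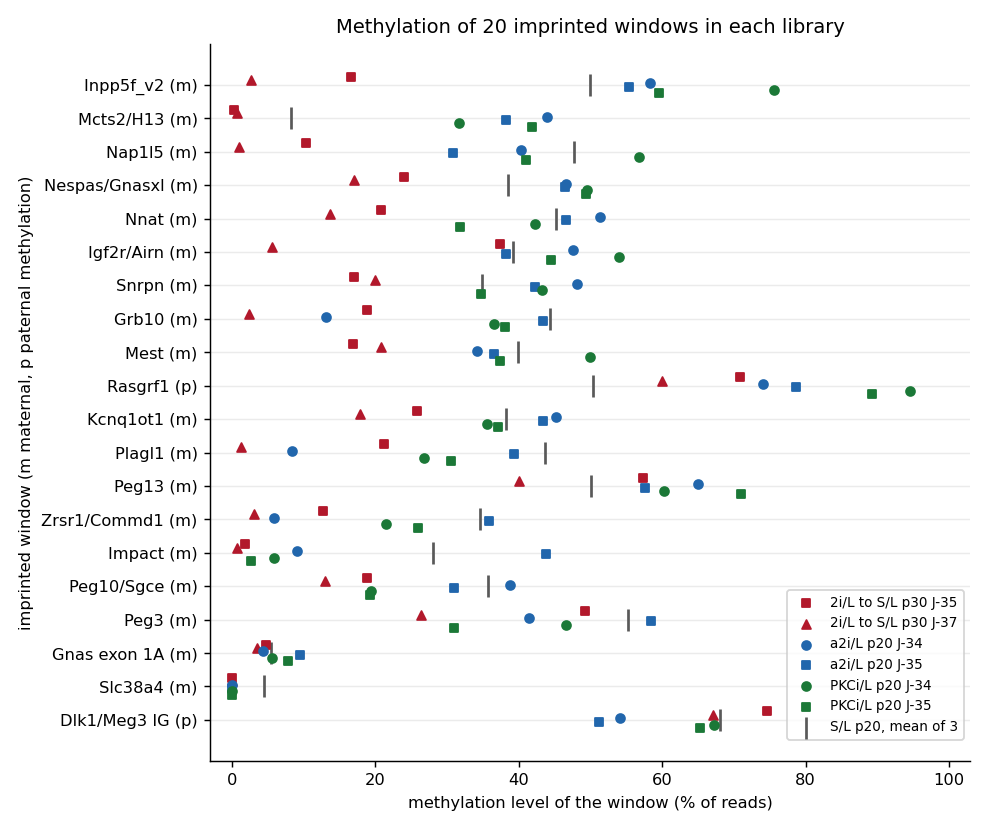
Methylation level (% of reads) of 20 imprinted windows in each of the 6 libraries, sorted by the difference between p30 and a2i/PKCi, with the mean of the 3 S/L p20 libraries as a grey bar. Both p30 libraries (red) lie to the left of the blue and green a2i/PKCi libraries in 13 windows, and overlap them in Plagl1, Grb10 and Zrsr1/Commd1, where a2i/L J-34 is also low.

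Among the protein-coding imprinted transcripts that start inside a host gene, the called tiles were 1 of 1 at Mcts2, Nap1l5 and Inpp5f_v2, 2 of 3 at Nnat and 0 of 3 at Zrsr1. Inpp5f_v2, a brain-rich transcript that starts inside Inpp5f, had 16.7% and 2.63% at p30, 58.3% and 55.4% in a2i/L and 75.6% and 59.6% in PKCi/L, over 38 to 72 reads. The p30 libraries were well below the others, and the fall of 5 CpGs at chr7:135831562-135831861 was called (-52.6 points, quasi-binomial adjusted p = 0.00118, limma adjusted p = 0.0429). Nap1l5, a retrogene inside Herc3, had 10.3% and 1.04% at p30, 40.3% and 30.8% in a2i/L and 56.8% and 41.1% in PKCi/L. Its 12 CpGs at chr6:58856628-58856872 were called lower by 36.6 points (quasi-binomial adjusted p = 0.000646, limma adjusted p = 0.0712). Nnat, which encodes the neuronal protein neuronatin from within Blcap, had 20.8% and 13.7% at p30, 51.3% and 46.6% in a2i/L and 42.3% and 31.8% in PKCi/L. Of its 3 tiles, 2 were called lower. Without p30 J-37 the calls at Nap1l5, Inpp5f_v2 and Nnat were lost, with adjusted p values of 0.238, 0.162 and, for the Nnat tile at 157386010, 0.301. The Nnat call was also lost without p30 J-35 (adjusted p = 0.195). Zrsr1, a retrogene for a splicing factor inside Commd1, had 12.7% and 3.08% at p30, 5.87% and 35.8% in a2i/L and 21.5% and 25.9% in PKCi/L. There a2i/L J-34 lay between both p30 libraries, and none of the 3 tiles was called. In the printed Zrsr1 promoter the share was 22.2% and 0% at p30, and 0 of 84 reads in p30 J-37 allows up to 3.57%.

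At the windows of 4 long noncoding RNAs both p30 libraries were below every a2i/PKCi library. Nespas/Gnasxl, which holds the start of the Nespas antisense RNA in the Gnas locus, had 23.9% and 17.0% at p30, 46.6% and 46.5% in a2i/L and 49.5% and 49.3% in PKCi/L. The 4 a2i/PKCi libraries were close together here and both p30 libraries far below them. Of its 5 tiles, 3 were called lower, the strongest at chr2:174124504-174124930 (16 CpGs, -30.1 points, quasi-binomial adjusted p = 0.000966, limma adjusted p = 0.122). Kcnq1ot1, whose RNA silences neighbouring growth regulators on the paternal chromosome, had 25.9% and 17.9% at p30, 45.2% and 43.4% in a2i/L and 35.6% and 37.1% in PKCi/L. The groups did not overlap, but its tile was not called (adjusted p = 0.0915). Airn, which silences Igf2r on the paternal chromosome, had 37.4% and 5.67% in the Igf2r/Airn window at p30, 47.6% and 38.3% in a2i/L and 54.0% and 44.5% in PKCi/L. Here p30 J-37 was far lower and p30 J-35 barely below the lowest a2i/PKCi library. Peg13, a noncoding RNA inside Trappc9, had 57.3% and 40.0% at p30 against 57.6% to 71.0% in the a2i/PKCi libraries, with the same narrow gap for p30 J-35.

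At Grb10 and Plagl1, windows of protein-coding growth regulators, p30 and a2i/PKCi libraries overlapped. Grb10, an adaptor that restrains insulin and growth factor signalling, had 18.8% and 2.33% at p30, 13.2% and 43.4% in a2i/L and 36.6% and 38.2% in PKCi/L. Over the window a2i/L J-34 lay between the p30 libraries, yet 1 of its 2 tiles was called lower (chr11:11925612-11925897, 21 CpGs, -24.7 points, quasi-binomial adjusted p = 0.0229, limma adjusted p = 0.167). Plagl1, a zinc finger transcription factor that slows growth in cell culture, had 21.3% and 1.24% at p30, 8.33% and 39.4% in a2i/L and 26.8% and 30.5% in PKCi/L, and its tile was not called (adjusted p = 0.281). In its printed promoter 0 of 122 reads were methylated in p30 J-37, which allows up to 2.46%, whereas p30 J-35 had 24.4%. The low a2i/L J-34 library had 7.44% at these CpGs, against 31.5% to 36.7% in the other 3 a2i/PKCi libraries. Snrpn, which encodes a splicing protein in the Prader-Willi region, had 17.0% and 20% at p30 against 34.8% to 48.2% in a2i/PKCi. Mest, which encodes a hydrolase-like protein, had 16.9% and 20.8% at p30 against 34.2% to 50% in a2i/PKCi. Neither tile was called (adjusted p = 0.196 and 0.122).

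Further windows showed small or uneven differences. Peg10/Sgce, with the retrotransposon-derived placental gene Peg10, had 18.9% and 13.04% at p30 against 19.3% to 38.8% in a2i/PKCi. Peg3, a zinc finger gene, had 49.3% and 26.4% at p30 against 30.9% to 58.4% in a2i/PKCi, and the groups overlapped. At Impact, a regulator of translation, 5 of the 6 libraries were low: 1.85% and 0.658% at p30, 9.04% in a2i/L J-34, and 5.88% and 2.70% in PKCi/L. The remaining library, a2i/L J-35, had 43.8%. Gnas exon 1A, the start of an untranslated Gnas transcript, was at 3.56% to 9.46% in all 6 libraries, and Slc38a4, an amino acid transporter gene, at 0% in all 6. Neither window was intermediate in S/L p20, where Gnas exon 1A had 3.43% to 7.93% and Slc38a4 0% to 10.5%.

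The pair of paternally methylated windows differed in direction, and neither held a called tile. The Dlk1/Meg3 IG window, which controls an imprinted cluster of growth genes and noncoding RNAs, had 74.7% and 67.1% at p30, 54.2% and 51.1% in a2i/L and 67.3% and 65.3% in PKCi/L. The p30 levels overlapped those in PKCi/L, and the tile was not called (adjusted p = 0.681). The Rasgrf1 window, near a gene for a Ras-activating exchange factor, had 70.8% and 60% at p30, 74.1% and 78.7% in a2i/L and 94.6% and 89.2% in PKCi/L, over 3 CpGs. It read 0% in the wild-type keratinocytes, so its imprinted state was not borne out in that library. The Dlk1/Meg3 IG window read 85.5% there, so neither paternal window was intermediate in that library.

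At the maternal windows the mean p30 level was nearer to that of 2i/L p20 and p23 than to that of S/L p20. The mean of the 18 windows was 11.3% in 2i/L p20, 16.1% at p23 (2i/L cells 3 passages back in S/L) and 15.1% at p30, against 35.8% in S/L p20. Slc38a4 stood at 0% at p30 and in a2i/PKCi, so its nearer side cannot be told. There p23 had 8.20% to 25.9% and 2i/L p20 9.38% to 15.6%, so p30 was nearer to S/L p20 (mean 4.45%). Leaving out Slc38a4, S/L p20 was nearer to the a2i/L and PKCi/L mean than to the p30 mean in 14 of 17 windows. In the same windows p23 was nearer to the p30 mean in 17 of 17. The S/L p20 exceptions were Mcts2/H13, Gnas exon 1A and Peg13. Line J-37 was the lower of the p30 libraries in 14 of the 18 windows. Among 3 lines it was the lowest in 14 windows at p23 and in 13 in 2i/L p20, but in 2 in 2i/L p10, 9 in S/L p10 and 5 in S/L p20. Its mean over the windows was 10.5% at p30, 9.78% at p23, 4.54% in 2i/L p20. In S/L p20 the line averaged 35.03%. In 2i/L p10 it had the highest mean, 24.6%, beside 22.0% in J-34 and 19.5% in J-35. Values of S/L p20, p23 and 2i/L p20 are descriptive here, since those libraries had other CpG coverage (64.8% to 70.1% of CpGs shared between S/L p20 and the 6 libraries, against 76.3% to 82.7% among the 6).

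Genome-wide, the p30 cells were close to the inhibitor-grown cells. The mean level over the 781769 CpGs was 24.6% and 24.8% at p30, 25.2% and 25.5% in a2i/L and 25.1% and 26.0% in PKCi/L. Both p30 libraries were the lowest, by 0.779 points between group means of 24.7% ± 0.180 (SD, n = 2) and 25.5% ± 0.392 (SD, n = 4). The exact two-sided permutation p was 0.133, the smallest that 2 against 4 can give. Counted as the methylated share of all reads pooled over CpGs, which gives deep CpGs more weight, the difference had the opposite sign (+1.58 points, exact permutation p = 0.267). No direction is therefore given for the global level. In tiles of 3 to 9 CpGs the level was 54.9% ± 0.425 at p30 (SD, n = 2) and 56.6% ± 0.847 in a2i/PKCi (SD, n = 4). In tiles of 10 to 29 CpGs it was 5.87% at p30 and 6.06% in a2i/PKCi, and in tiles of 30 or more CpGs 0.856% at p30 and 0.848% in a2i/PKCi.

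The quasi-binomial model called 209 of 65138 tiles lower (0.321%) and 149 higher (0.229%) at p30, together 0.55% of tiles. In the lower tiles the mean level was 45.5% and 41.9% in the p30 libraries J-35 and J-37, against 76.1% to 80.02% in the 4 a2i/PKCi libraries. In the higher tiles it was 45.5% and 50.4% at p30 against 14.4% to 19.1% in a2i/PKCi. All 358 called tiles had both p30 libraries outside the range of the 4 others, an order that 14.3% of all tiles showed downward and 8.1% upward. The call rule uses the same 6 libraries and favours this order. Limma called 16 of the same tiles lower and 9 of them higher, and no others. The counts rest on both p30 libraries: without p30 J-37 they were 11 lower and 8 higher, and without p30 J-35 47 and 34. Without PKCi/L J-35 the higher count was 337. With the line as a replicate block in limma, by title or by cell type field, 0 tiles were called either way, with 2905 lower and 1777 higher at an unadjusted p under 0.05 for the line in the title. Only 1 line spans both groups in that fit. Against a2i/L alone 736 tiles were lower (1.13%) and 845 higher (1.3%), and against PKCi/L alone 445 (0.683%) and 401 (0.616%). These comparisons share the p30 libraries; 181 lower and 124 higher tiles of the main lists were called against each.

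**Figure D3:**
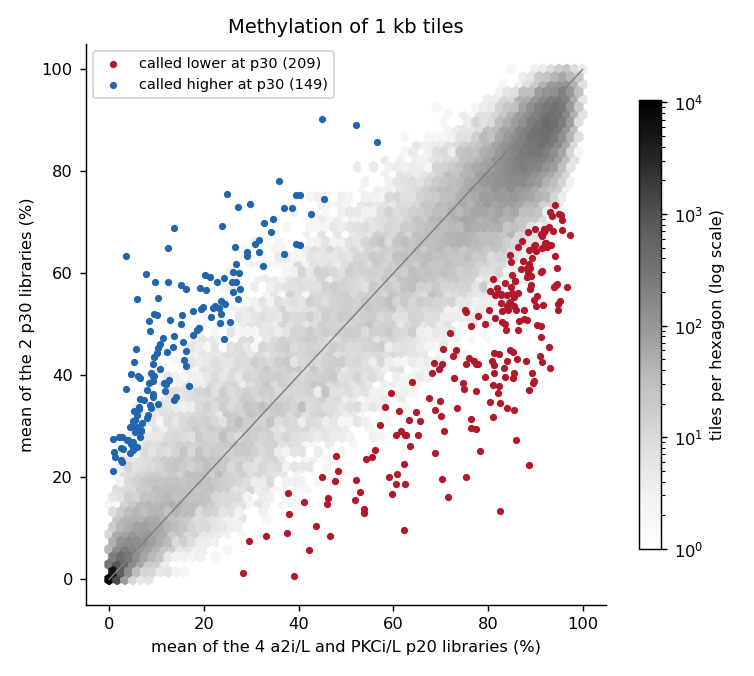
Mean level (%) of 65138 tiles in the 2 p30 libraries (vertical axis) and in the 4 a2i/PKCi libraries (horizontal axis), as hexagons shaded by tile number on a log scale, with called tiles in red (209 lower) and blue (149 higher). The 209 lower tiles average 43.7% at p30 and 77.6% in a2i/PKCi, and the 149 higher tiles average 47.9% at p30 and 16.3% in a2i/PKCi.

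The lower tiles lay far from matched promoters. Their median distance to the nearest matched promoter was 122 kb, beside 36.2 kb for all tiles and 61.6 kb for the 38061 tiles at 20% or more in the a2i/PKCi cells, the ones that could fall by 20 points. Of 32619 RefSeq promoters 9732 were matched, and none on chromosome 18, so an unmatched promoter may lie nearer. Of the lower tiles, 109 (52.2%) were more than 100 kb from a matched promoter, beside 36.6% of those 38061. In level they were like the tiles that could fall: 126 of the 209 (60.3%) stood at 80% or more in the a2i/PKCi cells, beside 61.7% of the 38061. The largest fall among tiles with at least 20 reads was at chr12:68936830-68936869 (4 CpGs), 613 kb from Mdga2. It had 25.0% and 20% at p30, 92.5% and 93.5% in a2i/L and 81.7% and 87.0% in PKCi/L. Its difference of -66.2 points was called by both models (quasi-binomial adjusted p = 8.48e-05, limma adjusted p = 0.0142). The tile at chr12:45332523-45332547, 21.2 kb from the promoter of Dnajb9, a chaperone of the endoplasmic reticulum, had 27.3% and 27.3% at p30, 92.9% and 97.1% in a2i/L and 80.6% and 72.9% in PKCi/L. S/L p20 had 89.3% there and p23 77.5%, so p30 was lower than the earlier return time as well. At chr6:26230141-26230158, 471 kb from Pot1a, a telomere protein gene, p30 had 35.3% and 31.0%, a2i/L 91.4% and 79.2%, PKCi/L 84.8% and 86.2%, S/L p20 92.7% and p23 79.2%. The other named falls ran from -51.1 to -55.4 points outside the imprinted windows, and Inpp5f_v2 was also among the 10 largest. In some of them the p30 libraries J-35 and J-37 lay far apart. They had 19.05% and 63.9% at chr10:56427758-56427768, and 36.8% and 3.33% at chr14:77477019-77477058.

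Of the 149 higher tiles, 99 (66.4%) stood under 20% in the a2i/PKCi cells, beside 65.03% of the 41637 tiles at 80% or less, the ones that could rise by 20 points. Their median distance to a matched promoter was 34.4 kb, beside 18.4 kb for those 41637. The largest rise was at chr15:100102029-100102145 (5 CpGs), 8.87 kb from Tmprss12, a membrane protease gene. It had 57.9% and 69.1% at p30, 0% and 8.20% in a2i/L and 2.94% and 2.67% in PKCi/L, and was called by both models (+60.04 points, quasi-binomial adjusted p = 4.1e-05, limma adjusted p = 0.0127). S/L p20 had 58.0% ± 14.7 (SD, n = 3) and 2i/L p20 9.02%, so cells in S/L were high and cells in each inhibitor medium low. A run of 3 higher tiles at chr7:134378662-134380600, between the promoters of Gm4532 and the zinc finger gene Zfp771, followed the same order. Its mean was 52.4% and 49.1% at p30, 4.89% and 6.68% in a2i/L and 9.77% and 7.71% in PKCi/L. S/L p20 had 57.6%, p23 31.9% and 2i/L p20 4.26%. At chr7:151018050-151018110, 74.9 kb from the lipid transfer gene Osbpl5, p30 had 75.4% and 62.5% against 10.3% to 16.9% in a2i/PKCi, and S/L p20 had 54.1%.

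Other rises went beyond the level of S/L p20. At chr19:45806382-45806460, 17.5 kb from Npm3, a histone chaperone gene, p30 had 73.1% and 73.0%, a2i/L 17.7% and 27.1% and PKCi/L 29.2% and 34.7%. S/L p20 had 32.6% ± 7.27 and p23 73.5% ± 8.52 (SD, n = 3 each), so both returned groups were high. At chr16:7426362-7426400 p30 had 65.2% and 44.8% against 0% to 11.4% in a2i/PKCi, beside 10.96% in S/L p20 and 20.4% at p23. At chr18:61001160-61001299 p30 had 44.1% and 72.5% against 0% to 19.4% in a2i/PKCi, beside 14.0% in S/L p20 and 46.6% at p23. Both p30 libraries exceeded all 4 a2i/PKCi libraries at each of these tiles.

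Across the lists, S/L p20 cells fell on different sides. Of the 209 lower tiles, 138 were covered in all ESC groups used, and there the mean was 42.4% ± 1.62 at p30 (SD, n = 2), 75.6% ± 1.54 in a2i/L (SD, n = 2) and 73.7% ± 0.266 in PKCi/L (SD, n = 2). S/L p20 had 51.8% ± 0.405 and p23 48.4% ± 1.61 (SD, n = 3 each), and S/L p20 was nearer to p30 in 85 of the 138 tiles. Of the 149 higher tiles 146 were covered, with 47.9% ± 3.54 at p30, 14.9% ± 0.528 in a2i/L (SD, n = 2 each) and 17.8% ± 1.91 in PKCi/L (SD, n = 2). S/L p20 had 21.6% ± 0.471 and p23 34.2% ± 1.32 (SD, n = 3 each), and S/L p20 was nearer to p30 in 24 of the 146. The p30, a2i/L and PKCi/L levels chose these tiles, so a group outside the choice tends to fall between them.

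**Figure D4:**
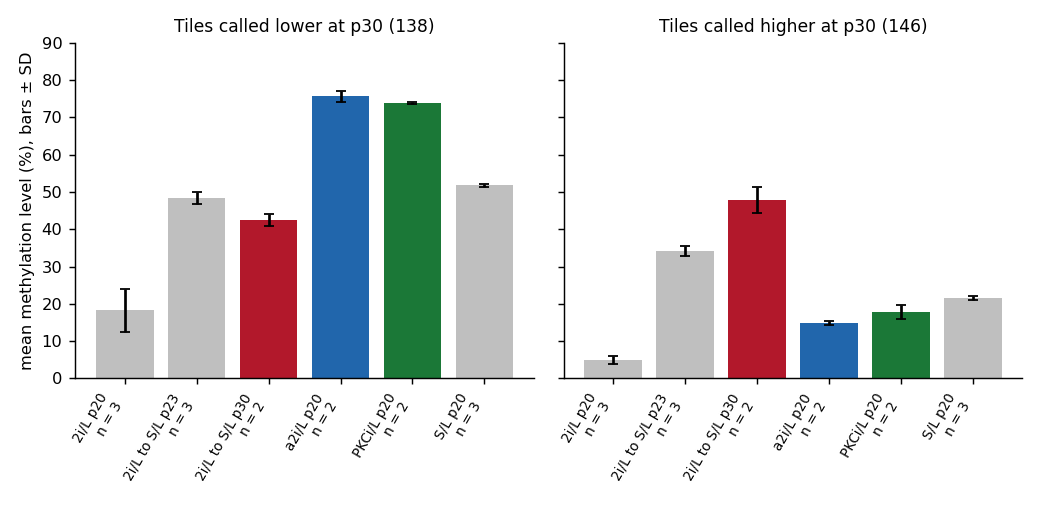
Mean methylation level (%) of 138 tiles called lower and 146 called higher at p30, by group, with bars of 1 SD over libraries (n below each name). In the lower tiles S/L p20 (51.8%) and p23 (48.4%) stand nearer to p30 (42.4%) than a2i/L (75.6%) and PKCi/L (73.7%) do, and in the higher tiles S/L p20 (21.6%) stands nearer to a2i/L (14.9%) and PKCi/L (17.8%).

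Few promoters were called. Of 8122 tiles that hold a matched promoter, 1 was called lower (0.0123%), which is Mcts2, and 1 higher (0.0123%), which holds the promoter of Gm38675. Over all tiles 0.321% were called lower and 0.229% higher. Promoter tiles averaged 1.77% in a2i/PKCi, so most could not fall by 20 points and the low count of falls does not show that promoters were spared. The Gm38675 tile, chr5:145019051-145019202, had 43.0% and 60.8% at p30, 9.32% and 17.0% in a2i/L and 7.79% and 6.21% in PKCi/L (quasi-binomial adjusted p = 0.000828, limma adjusted p = 0.0645). Among 14 tested imprinted genes the 16 promoter tiles gave 1 call, Mcts2, and a median difference of -0.03 points, beside 0 over all promoter tiles. Only the tiles of Mcts2, Plagl1 and Zrsr1 stood at 20% or more in a2i/PKCi. Their differences were -38.4 points at Mcts2, -15.0 at Plagl1, and -14.9 and -13.9 at Zrsr1. The remaining imprinted promoter tiles had too little methylation to fall by 20 points. The 5 tested pluripotency genes (Sox2, Klf2, Klf4, Tfcp2l1 and Fgf4) had unmethylated promoters in both groups, with a mean of 0.579% at p30 and 0.386% in a2i/PKCi, and 0 of 5 tiles were called. The same tiles stood at 0% to 2.13% in the wild-type keratinocytes, so this state does not set ESCs apart. All 8 tested germline genes, which DNA methylation keeps silent in most cells, were uncalled, with a mean of 37.5% at p30 and 39.8% in a2i/PKCi. Their differences ran from -12.8 to 5.72 points with a median of -0.49 points, and Tex101, Sycp1 and Ddx4 had the higher mean at p30 (5.72, 4.22 and 1.45 points). Slc25a31, a testis ADP/ATP carrier gene, had 33.97% and 30% at p30 against 40.2% to 49.7% in a2i/PKCi, and Asz1, a germ cell gene of the piRNA pathway, had 64.1% and 62.9% at p30 against 71.1% to 83.6% in a2i/PKCi. Both were below every a2i/PKCi library without a call (adjusted p = 0.349 and 0.431). For the DNA methylation machinery 0 of 11 tiles were called, for ERK pathway genes 0 of 9 and for lineage genes 0 of 9. Their means in a2i/PKCi were 0.436%, 0.399% and 4.51%, so on average these tiles had little room to fall. Of the markers of other cells, the fibroblast gene Twist1 was measured, at 0.479% at p30 and 0.426% in a2i/PKCi, and no keratinocyte marker was matched.

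Returned cells can also be compared with never-2i/L cells in the same medium, with no library shared, as p23 against S/L p20. On 54804 tiles covered in all 12 libraries, 511 were lower at p23 (0.932%) and 1670 higher (3.05%), and the comparison of p30 with a2i/L and PKCi/L gave 93 lower (0.17%) and 91 higher (0.166%). The lower lists shared 13 tiles, 14.0% of the p30 list and 2.54% of the p23 list, and the higher lists shared 17, 18.7% and 1.02%. Opposite calls were 3 and 5. Of the 13 shared lower tiles, 6 lie in imprinted windows: 1 in Nnat, 2 in Nespas/Gnasxl and 1 each in Nap1l5, Inpp5f_v2 and Grb10. At Nap1l5 the shared CpGs had 12.1% and 0.610% at p30 against 33.9% to 52.6% in a2i/L and PKCi/L, and 7.0%, 9.26% and 1.65% at p23 against 46.0% to 50.8% in S/L p20. Outside the windows, the tile at chr7:134754686-134754794, near the zinc finger gene Zfp629, had 67.1% and 50% at p30 against 92.1% to 100% in a2i/L and PKCi/L, and 33.3% to 41.4% at p23 against 74.4% to 80.7% in S/L p20. Among the shared higher tiles, chr17:23960121-23960246, 5.78 kb from the promoter of Elob, a subunit of the elongin complex, had 42.3% and 61.4% at p30 against 12.5% to 17.0%, and 54.4% to 72.7% at p23 against 11.2% to 27.3% in S/L p20. With limma, 0 tiles were called in both comparisons; limma called 4 lower and 8 higher at p30 on these tiles.

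Read depth on some chromosomes differed between the groups. Depth on each autosome was taken relative to the mean of the a2i/PKCi libraries and scaled so that the median autosome of a library is 1. On this scale chromosome 6 stood at 1.27 (p30 J-35) and 1.42 (p30 J-37) and chromosome 8 at 1.38 and 1.46, against 0.992 to 1.01 on both in the 4 a2i/PKCi libraries. Chromosome 19 stood at 1.105 in p30 J-35 alone, with 1.002 in p30 J-37 and 0.994 to 1.01 in a2i/PKCi. Chromosome 17 stood at 1.049 and 1.043 at p30 against 0.987 to 1.02 in a2i/PKCi. Relative to S/L p20 and scaled alike, the p23 libraries stood at 1.40 to 1.46 on chromosome 6 and 1.41 to 1.44 on chromosome 8, and 2i/L p20 at 1.36 to 1.49 and 1.40 to 1.42. The Nap1l5, Mest and Peg10/Sgce windows lie on chromosome 6. Without chromosomes 6 and 8 the lists held 183 lower and 125 higher tiles, and both p30 libraries were below all others in 10 of 17 imprinted windows. The part of these depths in the levels on chromosome 6 was not tested.

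**Figure D5:**
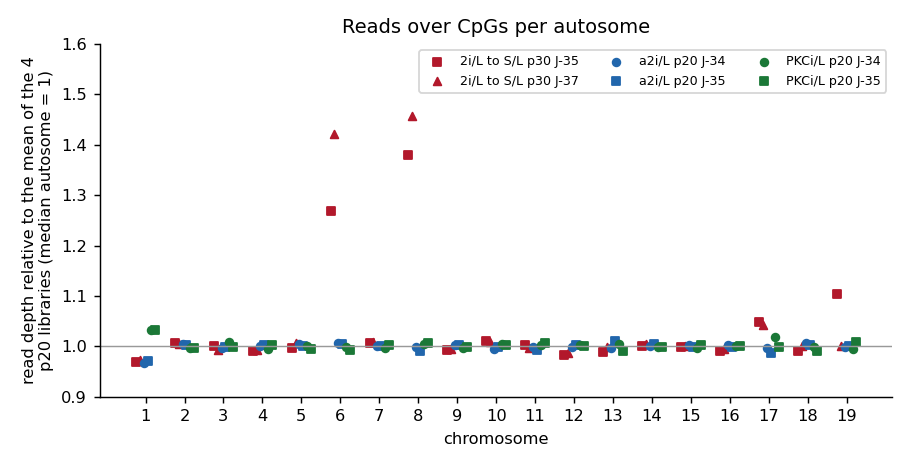
Read depth over CpGs on each autosome relative to the mean of the 4 a2i/PKCi libraries, scaled so that the median autosome of each library is 1, with 1 point per library. Both p30 libraries (red) lie at 1.27 to 1.46 on chromosomes 6 and 8, and the 4 a2i/PKCi libraries lie between 0.966 and 1.03 on every chromosome.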

How the data were processed

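RRBS libraries were sequenced on an Illumina instrument after 12 barcoded reactions had been pooled for bisulfite conversion, per the labels' protocols. BSMAP 2.89 and the build mm9 were used, per the submitters' processing notes; no source used here names filters or conversion rates. The deposited files give, per CpG, a text field of methylated over all reads and a score. Throughout the 29 files the score was the whole-number part of 1000 times the methylated share. Nothing in them shows pooling or normalization.

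Reads were summed over CpGs with at least 5 reads in all 6 libraries, in tiles of 1000 bp with at least 3 CpGs. A quasi-binomial logistic model (R 4.3.3) was fitted per tile with 1 level for p30 and 1 for a2i/L and PKCi/L together. Its dispersion was shrunk with limma 3.58.1 towards a trend on depth, with a floor of 1. The trend carried 19.6 prior degrees of freedom, more than the 6 libraries of a tile give, so it set most of the dispersion. P-values were adjusted by Benjamini-Hochberg over all autosomal tiles. Limma was run on log2 ratios with a pseudocount of 1. The depth trend was added after a test on simulated data on these 65138 tiles. In it 55% of 30-point and 12% of 20-point changes reached an adjusted p under 0.05, and limma reached it for 0 of either size. Of the unchanged tiles 1 reached it in the quasi-binomial model and 0 were called. Changes were set only in tiles of intermediate level, with the same spread in every tile, so tiles at high or low levels are not covered. That spread was a chosen value, not estimated from these libraries, and a2i/L and PKCi/L were given the same level. The simulated counts hold for that setting only and do not give the rate of false calls in the real data. Reads per CpG were capped at 200 for the depth per chromosome. Single values were compared by exact two-sided permutation (scipy 1.17.1). Promoters were placed by matching the CpG spacing of RefSeq sequences: 9732 promoters of 8624 genes matched at 1 position of 15961 with at least 8 CpGs, and 99.9% of neighbouring pairs kept the RefSeq order.

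Named regions are each imprinted window with a tested tile, the 10 largest falls and 10 largest rises among called tiles with at least 20 reads per library and no overlap of groups, and called promoter tiles; others were chosen after their values were seen. The members, lists, windows and tests were chosen with earlier results of these data known. The lines pair p30 with the other cells only through J-35, whose deviations from group means correlated at -0.0262 and -0.0126 with those of a2i/L and PKCi/L J-35. Limits for a count of 0 use 3 reads and cover counting error only, since reads were amplified without molecular identifiers. Alternatives are in the closing section.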

Additional observations from a re-analysis of the deposited data

Results flagged for a closer look

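At Impact, where the p30 libraries had 1.85% and 0.658%, the a2i/L J-35 library (43.8%) stood apart from the other 3 of the 4 a2i/L and PKCi/L libraries, which had 2.70% to 9.04%. At chr2:90113035-90113048, where the p30 libraries had 23.3% and 9.09%, the a2i/L J-35 library (82.3%) stood apart from the other 3, at 66.7% to 68.8%. These are 2 flags among 46 groups of 4 libraries, and about 1 in 20 groups would be flagged by chance.

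Read depth on chromosomes 6 and 8, which no comparison of levels uses, was higher at p30 on the scale where the median autosome of a library is 1. It was 1.27 in p30 J-35 and 1.42 in p30 J-37 on chromosome 6, and 1.38 and 1.46 on chromosome 8, against 0.992 to 1.01 in the a2i/L and PKCi/L libraries.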

How the results depend on the processing

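Counts of calls depended on depth, on the model and on which p30 library was left out; the cause was not tested. No called tile was called in the opposite direction in a fit that shared it. At a median of 69 reads per tile and library, 12% of simulated 20-point changes reached an adjusted p under 0.05.

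Lower and higher tiles numbered 209 and 149 in the report. At 3 reads per CpG the higher count was 240. With 10 reads per CpG (25721 tiles) they were 30 and 8, with 20 reads (3466 tiles) 7 and 0 (48 higher at an unadjusted p under 0.05), and with 5 CpGs per tile 56 and 34. Limma gave 16 and 9 with 2 groups and 16 and 12 with 3 groups, and with the replicate block by line 0 and 0. Against a2i/L alone they were 736 and 845, against PKCi/L alone 445 and 401, and at 30 points or more 125 and 80. Leaving out 1 library each gave 11 to 285 lower and 8 to 337 higher tiles.

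In imprinted windows, 9 tiles were called lower. The count was 2 of 17 tiles with 10 reads, 0 with 20 reads, where 2 window tiles were left (at Gnas exon 1A and Plagl1, neither called in the report, and 0 lower at an unadjusted p under 0.05), 2 and 1 with limma on 2 and 3 groups, and 0 with the replicate block by line. It was 15 against a2i/L alone, 14 against PKCi/L alone, and 1 to 11 with 1 library left out. Both p30 libraries were below all others in 4 of 11 windows with 10 reads. The mean window difference of -18.8 points ran from -23.4 without p30 J-35 to -14.3 without p30 J-37.

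The global difference of -0.779 points was +1.58 as the methylated share of all reads pooled over CpGs, and -0.906 to -0.608 with 1 library left out. In tiles of 10 to 29 CpGs, -0.192 became 0.139 by read share and lay between -0.404 and 0.0186 with 1 library left out. In tiles of 30 or more CpGs, 0.00878 lay between -0.0214 and 0.0390 with 1 library left out and was -0.00402 against PKCi/L alone.

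For p23 against S/L p20, lower and higher tiles (511 and 1670) were 1033 and 2608 at 3 reads, 43 and 211 at 10 reads and 200 and 375 with limma. Tiles called in both comparisons (13 lower, 17 higher) were 32 higher at 3 reads, 0 and 1 at 10 reads and 0 and 0 with limma. Of the 29 named and imprinted called tiles, limma kept 9 calls, and 8 held without p30 J-37 and 14 without p30 J-35. Leaving out chromosomes 6 and 8, chosen after seeing the data, gave 183 lower and 125 higher tiles.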

Other observations

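Among other CpG-dense tiles of intermediate methylation few were called. Of 81 tiles with at least 10 CpGs whose level was 30% to 70% in each S/L p10 library and in the wild-type keratinocytes, a list made after seeing the data, 6 were called lower and 0 higher at p30. Of the 70 outside the imprinted windows, 1 was called, chr13:40836337-40836649, 5.798 kb from the promoter of Tfap2a, a transcription factor of ectoderm and neural crest. It had 40.8% and 32.1% at p30, 56.1% and 62.3% in a2i/L and 61.4% and 58.2% in PKCi/L (quasi-binomial adjusted p = 0.0339, limma adjusted p = 0.266). S/L p20 had 31.0% ± 3.62 and p23 45.1% ± 2.10 (SD, n = 3 each). In 18 of the 70 (25.7%) both p30 libraries were below all others, beside 14.3% of all tiles, and 0.321% of all tiles were called lower. The median difference over the 70 tiles was -3.84 points, beside -0.29 points over all tiles.

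On chromosome 2, a pair of lower tiles at chr2:170113911-170114480 had a mean of 35.02% and 33.5% at p30, 59.1% and 63.3% in a2i/L and 63.3% and 69.2% in PKCi/L. S/L p20 had 4.12% there, 2i/L p20 9.51% and p23 21.2%, so p30 was above S/L p20 although called lower than a2i/L and PKCi/L.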
